A study of Mus musculus with 4 samples.

Results

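The genes described here encode fibronectin, periostin and other matricellular proteins, which were followed on 4 arrays of mouse heart muscle. They were chosen by name as Fn1, Postn, Ccn1, Ccn2, Thbs1, Thbs4, Tnc, Sparc, Spp1 and Fstl1, and every probe set (a group of array probes for 1 transcript) that the platform annotation gives to 1 of these symbols alone was taken. That gave 14 probe sets for 9 of the 10 genes, out of 20380 probe sets of 1 gene and 12393 genes. No probe set used here carried Spp1 (osteopontin), which was not analysed here. Of the 9 genes, 8 reached the floor of 64 intensity units on at least 1 array, as did 5158 of the 12393 genes.

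Each of the 4 groups was 1 array of total RNA pooled from several animals: IL-18 null mice with transaortic banding, IL-18 null mice with a sham operation, wild-type mice with banding, and wild-type mice with a sham operation. Banding narrows the aorta, so that the left ventricle pumps against raised pressure, and the series asks what the cytokine IL-18 does to gene expression in the hypertrophy that follows. The IL-18 null banded pool came from left ventricles of 6 mice on a C57BL/6 background, constricted for 1 week, and the IL-18 null sham pool from left ventricles of 5 mice. For the wild-type arrays the labels give no strain, pool size or banding time, and, for sham, heart muscle as the tissue. The design text of the series puts 5 to 6 animals in each group. Whether the genotypes match in these respects is therefore unknown. With 1 pooled array per group there is no replicate spread, and the differences between 2 arrays below have no error and no p-value. Unless a fold is named, differences are on the log2 scale, after values under the floor (log2 6) were set to it, and "at least" or "at most" marks a bound that follows from the floor.

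Matricellular proteins are secreted into the extracellular matrix, where they bind collagens, growth factors and cell-surface receptors such as integrins and tune how cells attach, migrate and signal, rather than bearing load themselves. In the adult heart most of them are made at low levels, and activated fibroblasts make much more of several of them after injury or overload. Fibronectin belongs here by function: it is a structural glycoprotein laid down early in repair, on which periostin and collagens assemble.

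The arrays were not alike in quality. The Gapdh control had 3′-end and middle intensities of 12239.1 and 3885.1 in IL-18 null banded, 10743.7 and 1619.6 in IL-18 null sham, 15321.5 and 17062.5 in wild-type banded, and 2044.5 and 83.6 in wild-type sham. A 3′ bias index (the mean log2 excess of 3′-end over middle signal of Gapdh, Actb and a bacterial spike-in) was 3.01, 3.37, 0.72 and 4.74 in the same order, so the IL-18 null arrays were close to each other and the wild-type arrays stood lowest and highest. Wild-type sham also correlated least with the others across the 5158 genes (r from 0.774 to 0.871, against 0.927 to 0.952 among the other arrays). By the index the genotypes lay further apart on the banded arrays (3.01 and 0.72) than on the sham arrays (3.37 and 4.74). Differences that involve either wild-type array are therefore to be read beside this index, and its part in them was not tested. Heart muscle genes were well above the floor on every array, and Myh6 was nearly even (between 33514.9 and 39738.1). Mybpc3, however, read 948.5 on wild-type sham and between 10370.9 and 16556.4 on the others. Tnnt2, Tnni3, Actc1 and Ttn were also lowest on wild-type sham, while Myh6, Ryr2 and Pln were not. Il18 itself lay between 7.4 and 9.1, under the floor in both genotypes, and so could not check the genotype labels.

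In the IL-18 null hearts, the banded array had much higher signal than sham for Fn1, Postn, Ccn2, Thbs1, Thbs4 and Fstl1, between 1.76 and 3.78 on the log2 scale. Sparc was higher by 0.86 and Ccn1 was lower by 2.42-fold, so 6 of the 8 measured genes were at least 2-fold higher and 1 lower. Among all 4827 genes measured in this comparison 6.98% were at least 2-fold higher and 2.53% lower. The members' median was 2.50 and that of all genes 0.08. Thbs4 entered only through the banded array, where it was high. Where both arrays reached the floor, 5 of 7 members were higher and 1 lower, beside 6.16% and 2.41% of 4477 genes.

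The wild-type arrays differed more across all genes. With banding 4 of 6 measured members passed 2-fold upward (Fn1, Postn, Sparc and Fstl1) and 0 downward, beside 21.7% and 12.8% of 5040 genes. Counting only genes above the floor on both, these were 3 of 5 and 0, beside 17% and 14% of 4047 genes. When the banded arrays were compared with each other, IL-18 null exceeded wild type 2-fold or more for 6 of 8 members and fell below it for 0, beside 5.7% and 7.74% of 4947 genes. With both above the floor these were 4 of 6 and 0, beside 4.92% and 6.65% of 4454 genes. The 3′ bias index was 3.01 on IL-18 null banded and 0.72 on wild-type banded, and its part in these counts was not tested.

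**Figure D1:**
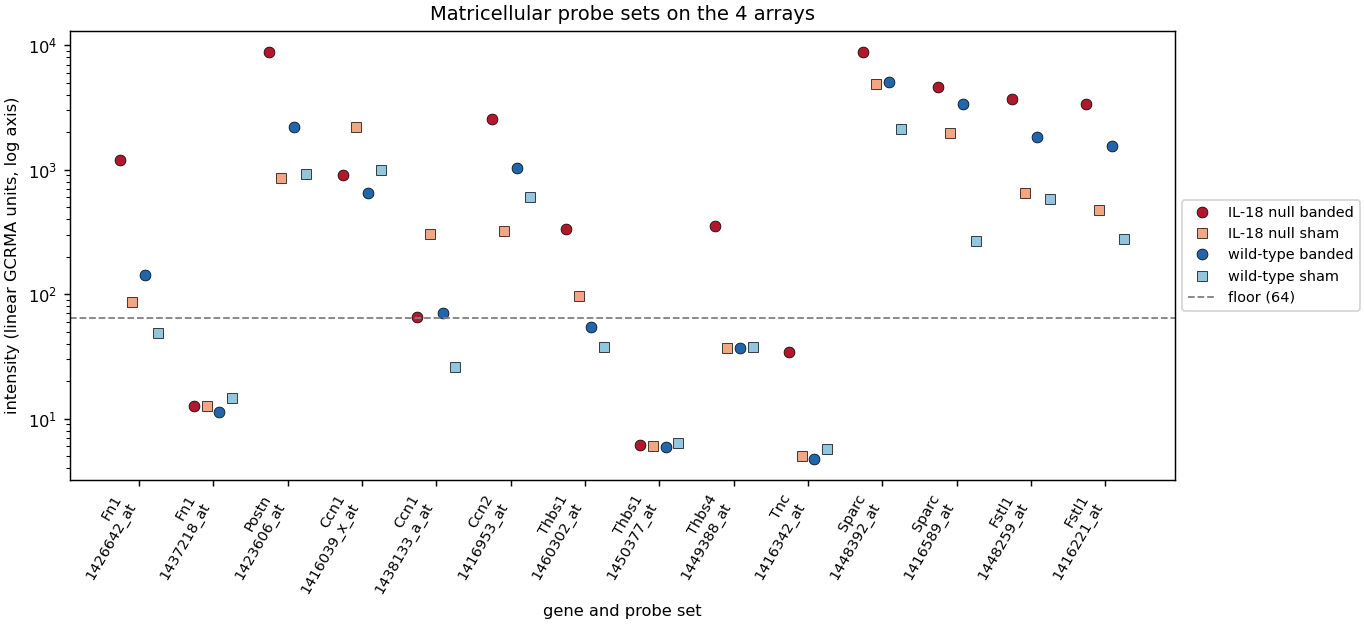
Intensity of each of the 14 probe sets (x axis, gene and probe set) on the 4 arrays (y axis, linear GCRMA units on a log axis); circles are banded, squares sham, red IL-18 null, blue wild type, and the dashed line is the floor of 64. The IL-18 null banded circle is the highest of the 4 points for Fn1 1426642_at (1193.5), Postn (8791.1), Ccn2 (2581.0), Thbs1 1460302_at (331.1) and Thbs4 (356.0). It is also the highest for both Sparc and both Fstl1 probe sets, and for Tnc (34.1, under the floor). It is not the highest for Ccn1, nor for Fn1 1437218_at and Thbs1 1450377_at, which are under the floor on all arrays.

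Fn1 encodes fibronectin, the dimeric adhesive glycoprotein that integrins assemble into fibrils. Its probe set 1426642_at read 1193.5 in IL-18 null banded, 87.1 in IL-18 null sham, 141.9 in wild-type banded and 48.7 in wild-type sham, the last of these under the floor. The IL-18 null banded array stood far above the other 3, of which wild-type banded was the highest. Banding differed from sham by 3.78 (13.7-fold) in IL-18 null, where Fn1 was number 9 from the top of 4827 genes, and by at least 1.15 (2.22-fold) in wild type, where it was number 992 of 5040. The banded arrays differed by 3.07 between genotypes (8.41-fold, higher in IL-18 null) and the sham arrays by at least 0.44. The other Fn1 probe set, 1437218_at, read between 11.2 and 14.5 on all 4 arrays, under the floor and with no sign of the same pattern, so the Fn1 result rests on 1 probe set. When both probe sets were averaged, only the IL-18 null banded value reached the floor, and Fn1 differed by at least 0.94 between the IL-18 null arrays and between the banded arrays, so that 2-fold was no longer shown.

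Postn encodes periostin, a matricellular protein of activated fibroblasts that binds fibronectin and promotes collagen cross-linking. Its single probe set read 8791.1 in IL-18 null banded, 851.5 in IL-18 null sham, 2188.3 in wild-type banded and 932.2 in wild-type sham, well above the floor throughout. Both banded arrays lay more than 2-fold above both sham arrays (smallest gap 1.23), and the sham arrays differed by only -0.13 (IL-18 null minus wild type). Banding differed from sham by 3.37 (10.3-fold) in IL-18 null, number 13 of 4827 genes, and by 1.23 (2.35-fold) in wild type. The banding difference was therefore larger in IL-18 null by 2.14, and on the banded arrays Postn signal in IL-18 null was 4.02-fold that in wild type. On the sham arrays, by contrast, the genotypes were nearly level for Postn.

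Fstl1 encodes follistatin-like 1, a secreted glycoprotein of the SPARC family that heart muscle and mesenchymal cells release. Its probe set 1448259_at read 3726.2 in IL-18 null banded, 649.1 in IL-18 null sham, 1842.4 in wild-type banded and 579.2 in wild-type sham. Its other probe set, 1416221_at, read 3357.5, 476.2, 1555.8 and 277.7 in the same order, so both gave the same ranking of the arrays, with both banded above both sham by at least 1.51. Banding differed by 2.52 and 2.82 in IL-18 null and by 1.67 and 2.49 in wild type. Between the banded arrays Fstl1 passed 2-fold only narrowly, by 1.02 and 1.11, and the difference of 1.02 was 0.99 after quantile normalization and 0.83 with cyclic loess. Of the members measured on all 4 arrays, Fstl1 had the largest wild-type banding difference by the probe set that represents each gene.

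Ccn2 and Ccn1 are sister genes of the CCN family of cysteine-rich matricellular proteins, both best known as immediate targets of mechanical strain and growth factors, and Ccn2 (connective tissue growth factor) as a partner of TGF-beta in fibrosis. Ccn2 read 2581.0 in IL-18 null banded, 319.3 in IL-18 null sham, 1026.1 in wild-type banded and 598.7 in wild-type sham. Both banded arrays lay above both sham arrays, with a smallest gap of 0.78. Banding differed by 3.01 (8.08-fold) in IL-18 null and by 0.78 (1.71-fold) in wild type, short of 2-fold. The banded arrays differed by 1.33 between genotypes, while in sham Ccn2 was lower in IL-18 null by 1.88-fold, so the larger IL-18 null difference holds both a higher banded and a lower sham value.

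Ccn1 ran the other way. Its probe set 1416039_x_at read 904.1 in IL-18 null banded, 2187.8 in IL-18 null sham, 650.0 in wild-type banded and 997.0 in wild-type sham, and 1438133_a_at read 66.1, 303.4, 70.2 and 26.0 in the same order. Both probe sets were highest in IL-18 null sham, and on 1416039_x_at both banded arrays lay below both sham arrays, as for 15.8% of all measured genes. Banding differed by -1.27 and -2.20 in IL-18 null, where Ccn1 was number 4770 from the top of 4827 genes. In wild type it differed by -0.62 and by at least 0.13, with wild-type sham under the floor on 1438133_a_at, so that the probe sets disagreed in sign there. The suffix of 1416039_x_at marks probes that may match other transcripts. Of the sister genes Ccn2 was thus higher and Ccn1 lower with banding in the IL-18 null hearts.

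The thrombospondins are calcium-binding glycoproteins; Thbs1 can activate latent TGF-beta and restrain vessel growth, and Thbs4 is known in mouse heart as a gene of pressure overload. Thbs1 (1460302_at) read 331.1 in IL-18 null banded, 97.5 in IL-18 null sham, 54.9 in wild-type banded and 37.4 in wild-type sham. Both IL-18 null arrays were above the floor and both wild-type arrays under it, so a wild-type banding difference was not measured. Banding differed by 1.76 (3.4-fold) in IL-18 null, and the banded arrays by at least 2.37 between genotypes. Another probe set of Thbs1, 1450377_at, read from 5.9 to 6.3 on all 4 arrays and carried no signal. Thbs4 read 356.0 in IL-18 null banded, against 36.8 in IL-18 null sham, 37.1 in wild-type banded and 37.8 in wild-type sham. It was thus above the floor on the IL-18 null banded array alone, at least 5.56-fold above each of the others, and the other 3 values were nearly equal.

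Tnc encodes tenascin-C, a large hexameric protein that is scarce in the healthy adult heart and appears at sites of injury. It read 34.1 in IL-18 null banded, 5.0 in IL-18 null sham, 4.7 in wild-type banded and 5.7 in wild-type sham. All 4 values lay under the floor, so no difference is given, although the IL-18 null banded value again stood highest.

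Sparc (osteonectin) encodes a collagen-binding matricellular protein that helps process procollagen. Its probe set 1448392_at read 8911.2 in IL-18 null banded, 4907.8 in IL-18 null sham, 5099.8 in wild-type banded and 2146.1 in wild-type sham, and 1416589_at read 4672.0, 1976.0, 3348.6 and 267.1 in the same order. IL-18 null banded was highest and wild-type sham lowest on both. Banding differed by 0.86 and 1.24 in IL-18 null and by 1.25 and 3.65 in wild type, so the wild-type size depended on the probe set (2.38-fold against 12.5-fold). The sham arrays differed by 1.19 and 2.89, higher in IL-18 null. On 1448392_at wild-type banded exceeded IL-18 null sham by only 0.06. The larger wild-type banding differences of Sparc thus go with a low value on wild-type sham, the array with the highest 3′ bias index, whose part in them was not tested.

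Across the 8 measured members, IL-18 null banded was at least 2-fold above each of the other 3 arrays for 6 genes (Fn1, Postn, Ccn2, Thbs1, Thbs4 and Fstl1), as it was for 1.98% of the 5158 measured genes. Thbs4 reached the floor on that array alone, so it entered the 8 only through the array where it was high. IL-18 null banded was the highest of the 4 arrays for 7 of the 8, all but Ccn1, beside 24.7%. Both banded arrays lay above both sham arrays for 5 of the 8 (Fn1, Postn, Ccn2, Sparc and Fstl1), beside 20.1% of all measured genes, and at least 2-fold above for Postn and Fstl1, beside 0.95%. Without banding 2 of 7 measured genes (Ccn1 and Sparc) passed 2-fold upward in IL-18 null sham relative to wild-type sham and 0 downward, beside 16.3% and 6.29% of 4851 genes, and where both arrays reached the floor 2 of 5 and 0, beside 13% and 6.62% of 4139 genes. The difference of the banding responses, IL-18 null minus wild type, was 2.14 for Postn, 2.24 for Ccn2, 0.85 for Fstl1, -0.39 for Sparc and -0.66 for Ccn1, by the probe set that represents each of these members above the floor on all 4 arrays. The other probe sets of Sparc (-2.41) and Ccn1 (at most -2.33) passed 2-fold downward, and that of Fstl1 gave 0.33. It was at most 2.63 for Fn1, whose wild-type sham value was under the floor. With bounds counted, 5 of 8 members (those of Fn1, Postn, Ccn2, Thbs1 and Thbs4) passed 2-fold upward in this measure and 0 downward, beside 20.4% and 21% of 5158 genes. The sizes for Fn1, Thbs1 and Thbs4 rest on values set to the floor. Of the members above it on all 4 arrays, only Postn and Ccn2 passed upward. With probe sets of a gene averaged, 3 of 7 members passed upward and 2 downward (Sparc at -1.40 and Ccn1 at -2.14), beside 13.4% and 25.1% of 4071 genes. Without probe sets ending in _s_at or _x_at these were 5 and 1 of 8 (Ccn1), beside 18.5% and 24% of 4790 genes.

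**Figure D2:**
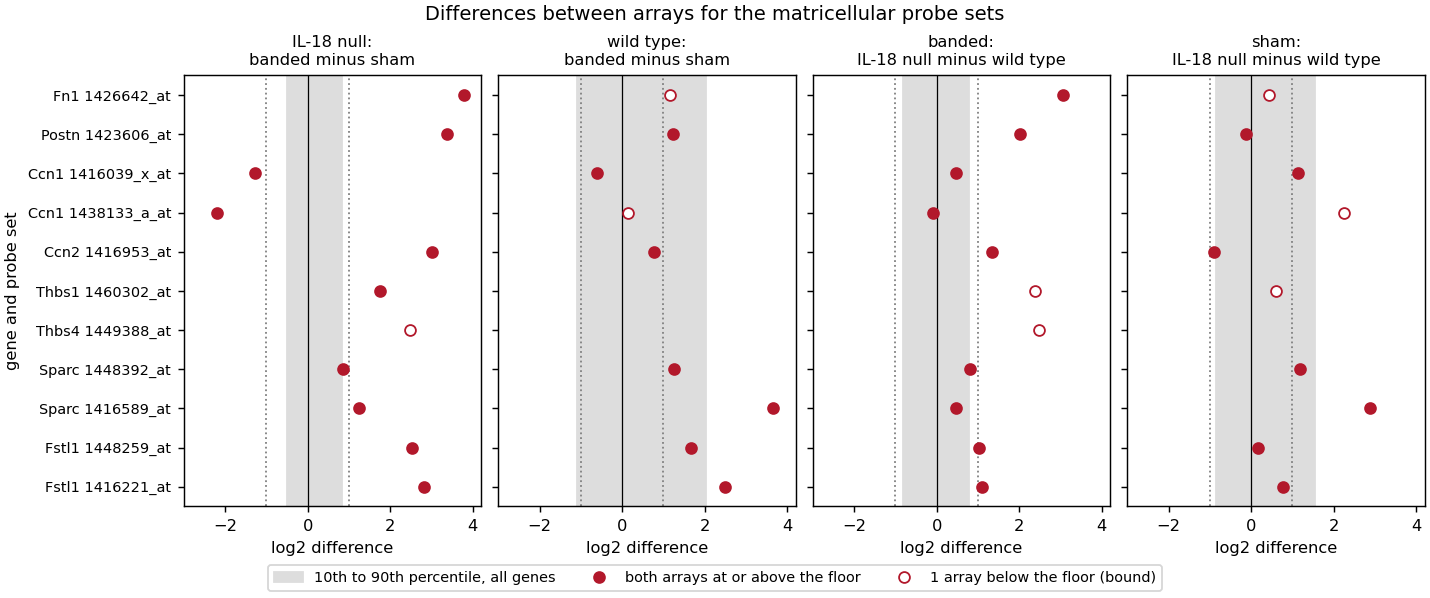
Log2 differences (x axis) of the 11 probe sets that reached the floor (rows) in 4 comparisons of 2 arrays; filled points had both arrays at or above the floor, open points are bounds, dotted lines mark 2-fold and the grey band spans the 10th to 90th percentile of all measured genes. The band runs from -0.50 to 0.82 between the IL-18 null arrays and from -1.10 to 2.04 between the wild-type arrays, so Fn1, Postn and Ccn2 lie far outside it in the first panel and inside it in the next.

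No group was replicated, and the only test that 4 arrays allow sets both banded pools against both sham pools. It was limma's additive fit of surgery and genotype over 7366 probe sets, with 1 residual degree of freedom. Its error comes from the difference between the banding responses of the 2 genotypes, moderated over probe sets. The SE and p-values of this fit therefore measure no spread between replicates. The banding term was 2.65 ± 0.59 and 2.10 ± 0.58 (SE) for the probe sets of Fstl1, 2.66 ± 0.79 for Fn1 and 2.30 ± 0.69 for Postn, on unfloored values. It was 2.44 ± 0.75 and 1.05 ± 0.36 for Sparc and 1.90 ± 0.78 for Ccn2. By limma with Benjamini-Hochberg adjustment 0 of the 11 member probe sets passed an adjusted p of 0.05 for banding (adjusted p = 1 for each), as did 0 of all 7366, while 6 of the 11 had an unadjusted p under 0.05, beside 1.44% of all. The 6 were both probe sets of Fstl1 and of Sparc, and those of Fn1 and Postn. With no filter on low signal, which lets 20380 probe sets share the estimate of the spread, Sparc (1416589_at) had an adjusted p of 0.00823, Postn of 0.0109 and Fstl1 (1416221_at) of 0.0163 by limma, so the call depends on that filter. In that form 3 of 14 member probe sets and 245 of all 20380 passed. With the filter and quantile normalization 64 of 7474 probe sets passed for banding and 9 for genotype, with 0 of 11 member probe sets in each. For genotype 0 of 11 member probe sets passed with the filter, as did 0 of all 7366. Without the filter 0 of 14 passed, beside 92 of all 20380. With it 1 of the 11 (Sparc 1448392_at, 1.00 ± 0.36) had an unadjusted p under 0.05 by limma, beside 0.19% of all.

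RefSeq start regions were at hand for 7 of the 10 genes (assembly GRCm38.p6, 250 bases before to 50 after a start, 10 windows in all). Shown are those of 3 genes that stood 2-fold or more above every other array in IL-18 null banded, and of Ccn1, which was lower with banding. They read 5′ to 3′ on the gene's strand, Postn on the plus strand at chr3:54360857-54361156 (the downstream of its 2 listed starts), Thbs4 on the minus strand at chr13:92794769-92795068, Fstl1 on the plus strand at chr16:37776805-37777104 and Ccn1 on the minus strand at chr3:145649936-145650235. Capitals mark matches, on either strand, to TATAAA, to GGAATG (the core bound by TEAD factors) and to CAGACA (a SMAD-type element).
Postn: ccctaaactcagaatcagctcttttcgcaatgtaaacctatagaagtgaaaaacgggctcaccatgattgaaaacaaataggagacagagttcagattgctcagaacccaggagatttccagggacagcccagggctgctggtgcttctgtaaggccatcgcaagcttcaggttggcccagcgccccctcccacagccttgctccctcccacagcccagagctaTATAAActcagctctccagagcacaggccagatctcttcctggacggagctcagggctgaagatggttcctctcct
Thbs4: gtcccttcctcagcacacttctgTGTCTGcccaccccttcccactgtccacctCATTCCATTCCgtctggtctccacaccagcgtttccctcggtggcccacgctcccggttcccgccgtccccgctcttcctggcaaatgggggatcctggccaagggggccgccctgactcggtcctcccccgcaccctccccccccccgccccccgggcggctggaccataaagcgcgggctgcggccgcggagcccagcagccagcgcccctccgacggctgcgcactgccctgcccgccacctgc
Fstl1: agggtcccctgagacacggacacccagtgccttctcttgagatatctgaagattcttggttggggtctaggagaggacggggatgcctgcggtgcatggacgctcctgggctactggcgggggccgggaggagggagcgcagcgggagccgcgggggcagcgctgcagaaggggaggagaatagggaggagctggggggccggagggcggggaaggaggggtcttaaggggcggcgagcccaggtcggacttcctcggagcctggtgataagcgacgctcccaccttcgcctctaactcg
Ccn1: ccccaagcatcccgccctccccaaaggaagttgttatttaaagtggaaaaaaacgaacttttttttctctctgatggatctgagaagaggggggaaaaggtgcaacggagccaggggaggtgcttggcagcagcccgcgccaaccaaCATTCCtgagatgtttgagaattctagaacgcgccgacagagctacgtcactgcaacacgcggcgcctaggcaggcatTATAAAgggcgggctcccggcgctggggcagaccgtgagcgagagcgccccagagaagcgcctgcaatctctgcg
Postn and Ccn1 hold TATAAA with its first letter at -26 and -25 from the start, as did 13.6% of the 32851 windows of all genes at any position. Ccn1 holds GGAATG on the opposite strand at -103, and Thbs4 holds it there at -197 and -192, overlapping by 1 letter; 14.7% of all windows hold it. Thbs4 holds CAGACA on the opposite strand at -227, as did 21% of all windows, and windows of Sparc, Tnc and Spp1, not shown, hold it too. TATAAA is also in windows of Tnc and Spp1. TGANTCA (the AP-1 element, in 7.81% of windows) and the CArG box of serum response factor (in 1.63%) matched none of the 10 windows. In Fstl1 no match was found to any of these elements. A match is a run of letters only, and whether a factor binds there was not tested.

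By profile over the 4 arrays (Euclidean distance between log2 values centred on their own mean, among 2184 other genes with a range of at least 1), the genes nearest to Postn were Mt2 (0.37), Icam1 (0.49) and Col5a2 (0.59). Mt2, a metallothionein, was also nearest to Fn1 (0.67), followed by the slow myosin heavy chain Myh7 (0.76). Col5a2, a collagen of fibril cores, was nearest to Ccn2 (0.47), followed by the natriuretic peptide gene Nppa (0.58). Nearest to Fstl1 were Cdkn1a (0.31), Nppa (0.33) and Col6a2 (0.39). Thbs4 lay closest to the leukocyte gene Plek (0.08) and Thbs1 to the macrophage gene Mpeg1 (0.41), in profiles where several values sat at the floor. Sparc (Slc3a2, 0.12) and Ccn1 (Atg5, 0.37) had neighbours of other kinds, so the members did not share 1 profile.

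The list of other matricellular genes holds further thrombospondins, CCN proteins, fibulins and SPARC relatives. Of 21 on the arrays 8 were measured between the IL-18 null arrays, with 2 at least 2-fold higher and 0 lower with banding. Their median was 0.02 (-0.08 after quantile normalization and -0.06 with loess), against 0.08 for all genes. The higher were Tgfbi, a TGF-beta-induced adhesion protein (1.45), and Igfbp7 (1.10, and 0.96 after quantile normalization). In wild type 4 of 8 were higher and 3 lower, beside 21.7% and 12.8% of all genes. Among them were Tnxb (2.65), Sparcl1 (1.74) and Tgfbi (-1.47), so Tgfbi had opposite signs in the 2 genotypes. Thbs2, a close relative of Thbs1, differed by 0.02 in IL-18 null and by -1.60 in wild type.

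Receptors of these proteins mostly stayed within 2-fold. Of 14 measured in IL-18 null 2 were higher with banding and 0 lower (median 0.17), beside 6.98% and 2.53% of all genes. They were Itga5, the alpha chain of the fibronectin receptor, by at least 2.05, and the scavenger receptor Lrp1 by 1.19. Itga5 read 265.6 in IL-18 null banded, 22.4 in IL-18 null sham, 55.2 in wild-type banded and 9.7 in wild-type sham, so like Thbs4 it passed the floor on the IL-18 null banded array alone. In wild type 3 of 14 were higher and 0 lower, close to the 21.7% of all genes that were higher, and after quantile normalization 2 were higher and 3 lower (Itgav at -1.14, Lrp6 at -1.24 and Egfr at -1.11). The largest was the integrin chain Itgb1 at 5.35 or more, which read 13.0 in wild-type sham and between 792.3 and 2609.5 on the others. Itgb1 is thus a gene on which wild-type sham alone was low.

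Among enzymes and partners that process these proteins, 5 of 12 were higher with banding in IL-18 null and 0 lower (median 0.78): the metalloproteinase inhibitor Timp1 by at least 4.37, the collagen cross-linking enzyme Lox by at least 2.81, Adamts1 by 2.26, Mmp2 by 1.92 and the transglutaminase Tgm2 by 1.21. Of all genes 6.98% were higher and 2.53% lower in IL-18 null. In wild type 3 of 9 of these enzymes and partners were higher and 2 lower (median 0.59), beside 21.7% and 12.8% of all genes. Timp1 and Lox were under the floor on the other 3 arrays. Of TGF-beta ligands, receptors and early targets 4 of 11 were higher and 0 lower in IL-18 null (median 0.47): Id3 by 1.97, Ltbp3, which stores latent TGF-beta, by 1.43, Skil by 1.27 and Id1 by 1.24. The ligand genes Tgfb1, Tgfb2 and Tgfb3 were under the floor on all arrays. Of 11 measured factors and targets of YAP and SRF, the list that shares regulators with Ccn1 and Ccn2, 1 was higher in IL-18 null and 0 lower (median 0.18), namely Tagln (1.26). In wild type 2 of 13 TGF-beta genes were higher and 0 lower (median -0.23), and 3 of 11 YAP and SRF genes were higher and 1 lower (median -0.01), shares near or below the 21.7% and 12.8% of all genes. After quantile normalization the TGF-beta genes had 2 higher and 3 lower (Tgfbr1, Smad7 and Id2), with a median of -0.62.

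**Figure D3:**
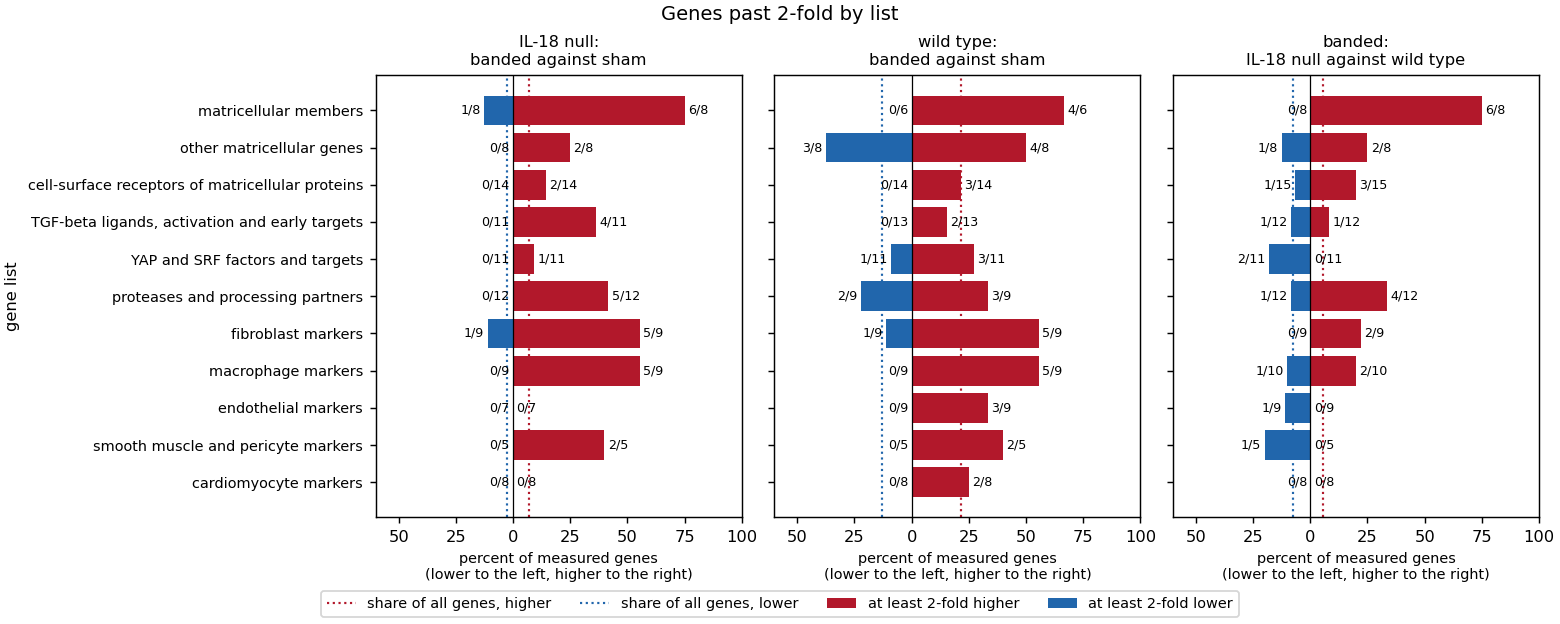
Share of measured genes in each list that were at least 2-fold higher (red, to the right) or lower (blue, to the left) in 3 comparisons (panels), with the counts printed and dotted lines at the share of all genes. The matricellular members have 6 of 8 higher in the left and right panels, while fibroblast markers have 5 of 9 and 2 of 9.

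Markers of the cells that make these proteins also differed with banding. Of 11 fibroblast markers 9 were measured; 5 were at least 2-fold higher and 1 lower with banding in each genotype, with medians of 1.06 in IL-18 null and 1.03 in wild type. After quantile normalization 3 of the markers were higher and 1 lower in wild type (median 0.73), with Col1a2 at 0.82 and Col3a1 at 0.73. Their summed intensity was 30282.2 in IL-18 null banded, 13617.5 in IL-18 null sham, 24158.9 in wild-type banded and 10391.8 in wild-type sham. The higher ones were mostly collagens, Col1a1 by 2.85 and 2.43 and Col3a1 by 2.27 and 1.03 in IL-18 null and wild type. The surface receptor gene Pdgfra, a marker of resting fibroblasts, differed by -0.84 and -0.61, Scara5 by -1.51 and -1.24, and Tcf21 and Ddr2 were under the floor on all arrays. Between the banded arrays 2 of 9 fibroblast markers passed 2-fold upward in IL-18 null (Col1a1 and Col3a1) and 0 downward, with a median of 0.15. There 6 of 8 members passed upward, with a median of 1.67, and 5.7% of all genes were higher and 7.74% lower.

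Macrophage markers had 5 of 9 higher and 0 lower with banding in each genotype, beside 6.98% of all genes higher in IL-18 null and 21.7% in wild type. The genes were not all the same. C1qb, C1qc and Fcgr3 passed in both, Csf1r and Mpeg1 in IL-18 null only, and C1qa and Lyz2 in wild type only. In wild type Csf1r and Mpeg1 differed by -0.67 and -0.51, while in IL-18 null Lyz2 differed by 0.93 and C1qa was under the floor. The macrophage medians were 1.06 and 1.10, and in wild type quantile normalization gave 3 higher and 1 lower (median 0.69). Their summed intensity was 9442.3 in IL-18 null banded, 4232.1 in IL-18 null sham, 6792.7 in wild-type banded and 4413.7 in wild-type sham. The monocyte and macrophage genes Cx3cr1, Ccr2 and Cd163 were under the floor on all arrays. Cardiomyocyte markers had 0 of 8 past 2-fold in IL-18 null (median -0.01) and 2 of 8 higher in wild type (median 0.56). Endothelial markers had 0 of 7 past 2-fold in IL-18 null (median -0.21) and 3 of 9 higher in wild type (median 0.90). Smooth muscle and pericyte markers had 2 of 5 higher with banding in each genotype. They were Tagln and Pdgfrb in IL-18 null, and Tagln and Des in wild type. Pdgfrb differed by -0.80 in wild type and Des by 0.26 in IL-18 null, and Des read 6.6 on wild-type sham. The wild-type counts of these muscle and endothelial lists stand beside 21.7% of all genes. Of 4 platelet markers, which matter for Thbs1, 2 were measured, and they ran in opposite directions in IL-18 null. Pf4 was higher with banding by 1.18 in IL-18 null and differed by -0.29 in wild type. Ppbp differed by -0.20 or less in IL-18 null (7.2 in banded and 73.6 in sham) and by -0.08 in wild type. Of 3 measured neutrophil markers 1 was higher in IL-18 null (S100a8, by 1.18), and 2 were lower with banding in wild type, S100a8 at -1.67 or less and S100a9 at -3.41 or less. Between the banded arrays, where 6 of 8 members were higher in IL-18 null, S100a8 and S100a9 were higher too, by at least 2.07 and 3.48. The other measured neutrophil marker, Cxcr2, differed there by 0.11. Of 10 macrophage markers 2 were higher and 1 lower between the banded arrays (median 0.52), beside 5.7% and 7.74% of all genes. The neutrophil sum was 1219.0 in IL-18 null banded, 780.9 in IL-18 null sham, 290.4 in wild-type banded and 1286.2 in wild-type sham, with Csf3r and Mmp8 under the floor on all arrays. The part of cell numbers in the members' differences was not tested, and in such bulk tissue fewer cells of a type and less RNA per cell cannot be told apart.

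**Figure D4:**
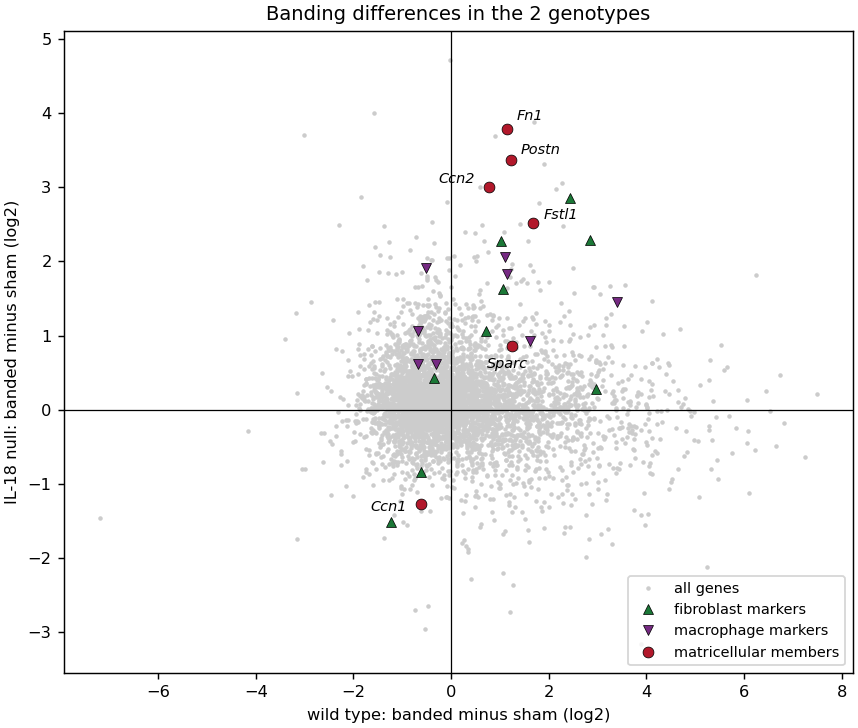
Banding difference in IL-18 null (y axis, log2) against that in wild type (x axis, log2) for all genes measured in both (grey), fibroblast markers (green), macrophage markers (purple) and the 6 members measured in both (red, named). Fn1, Postn, Ccn2 and Fstl1 lie high on the y axis (2.52 to 3.78) at modest x values (0.78 to 1.67), while Ccn1 is below 0 on both.

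Rescaling the arrays by quantile or cyclic loess normalization left the members' differences between the IL-18 null arrays nearly as they were, with 6 upward and 1 downward under each (medians 2.39 and 2.46), beside 5.44% higher and 3.18% lower, and 5.77% and 3.04%, of all genes. In wild type quantile normalization moved the median of all genes to -0.42, against -0.08 as deposited, and left 2 of 6 members past 2-fold (Fn1 at 0.93 and Sparc at 0.99 dropped under it), beside 16.6% of genes higher and 24.8% lower; cyclic loess kept 4, beside 24.3% and 8.37%. Between the banded arrays both left 5 of 8 members higher, beside 6.55% of genes higher and 7.08% lower with quantiles, and 3.87% and 9.4% with loess. Between the sham arrays 2 members were higher and 1 lower with quantiles (Ccn2 at -1.06), and 2 and 0 with loess, beside 13.3% and 12.7%, and 17.7% and 4.34%, of all genes. With the floor at log2 5, or with none, Thbs1 there differed by 1.38 and 3 members were higher, beside 16.1% and 18.8% of all genes. The split of all genes in the difference of the banding responses was 28.1% and 17.4%, and 13.6% and 24.7%. No member past 2-fold changed sign under these scalings. Among the lists, Lum of the fibroblasts (0.96 and 0.96), Csf1r of the macrophages (0.91 and 0.96) and Pdgfrb of the pericytes (0.91 and 0.92) dropped just under 2-fold between the IL-18 null arrays with quantiles and with loess. With loess the median of the YAP and SRF genes in wild type was 0.18 and that of fibroblast markers between the banded arrays was -0.04, both of opposite sign to the values above.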

How the data were processed

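The authors deposited intensity values on a linear scale, 1 per probe set and array, computed with GCRMA per the submitters' processing notes; its version and settings are not given in the sources used here. Their range showed the scale to be linear. Groups came from the sample titles. Of 22690 probe sets, 64 controls, 691 with several genes and 1555 with none in the platform annotation were left out. Gene identifiers were matched to RefSeq (GRCm38.p6): 20351 of 20380 matched and 0 symbols changed. Log2 values under the floor of log2 6 were set to it, and a gene entered a comparison when 1 of its arrays reached the floor. A gene was represented by its probe set with the highest mean, and was counted at a log2 difference of 1 (2-fold), with no test. The additive fit used limma 3.58.1 (lmFit, eBayes with trend) on unfloored log2 values. The fit and the 2-fold calls were tested on simulated data with independent noise, and for the fit with equal banding effects in both genotypes. That checks the code, and says nothing of the fit where banding effects differ between genotypes. No depth applies to arrays, and their number limits the precision.

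Named genes were the members, from each list up to 4 with the largest difference between the IL-18 null arrays and 2 more between the wild-type arrays, and the 3 nearest profiles of each member; other genes were named after their values were seen. Alternatives tried were a lower (log2 5), a higher (log2 7) or no floor, normalization by quantiles or cyclic loess, averaging a gene's probe sets, leaving out probe sets with the suffix _s_at or _x_at, and a 1.5-fold threshold. For limma they were no trend, no filter, both normalizations and an adjusted p of 0.1. The members and lists were chosen with earlier results of these data known.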

Additional observations from a re-analysis of the deposited data

Results flagged for a closer look

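The Ccn1 probe set 1438133_a_at gave banding differences of opposite sign in the 2 genotypes, -2.20 in IL-18 null and 0.13 in wild type. The wild-type value is a bound of small size, since wild-type sham was under the floor, and the difference between genotypes was not tested.

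Probe set 1421811_at is annotated to both Pald1 and Thbs1, so it was used in no comparison and its signal is credited to neither gene. It read 3338.4 in IL-18 null banded, 754.4 in IL-18 null sham, 370.3 in wild-type banded and 1357.0 in wild-type sham. Banding differed by 2.15 in IL-18 null and by -1.87 in wild type, and the banded arrays by 3.17 between genotypes. In IL-18 null it ran in the same direction as 1460302_at (1.76).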

How the results depend on the processing

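No count of members past 2-fold between the IL-18 null arrays or between the banded arrays moved by more than 1.5 times under the alternatives run, the lowest being 6 (7 as reported, Ccn1 included) and 4 (6 as reported), each when a gene's probe sets were averaged. With that averaging 5.1% of all genes were higher and 2.9% lower between the IL-18 null arrays, and 3.74% and 10.2% between the banded arrays. In wild-type banding the count was 2 after quantile normalization, against 4 as deposited, while the median of all genes moved to -0.42. In sham it was 4 at a 1.5-fold threshold, against 2, where 23.7% of all genes were higher and 21.5% lower at 1.5-fold. With no filter on low signal 3 member probe sets passed limma's adjusted p of 0.05 for banding, against 0 with it, as the number over all probe sets was 245 of 20380, against 0 of 7366; the cause was not tested. Of 251 single-gene values under alternatives, 236 stayed on their side of 2-fold, 8 dropped under it (bounds counted at their size), 7 passed it and none that had passed changed sign. Leaving out wild-type sham, an alternative added after seeing the data, can only keep or raise the counts of 6 and 5 members whose arrays did not overlap, so their values there, 6 and 5, say nothing of stability. No paired analysis was possible because the labels number no replicates and each group has 1 array, so nothing beyond the additive fit, which sets surgery within genotype, could be paired. Leaving out an array leaves the additive fit no residual degrees of freedom. Signal under the floor limits Tnc, Thbs4 and the wild-type values of Thbs1.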

Other observations

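Adamts1, a metalloproteinase that cleaves proteoglycans and thrombospondins, had opposite banding differences in the 2 genotypes. It read 1013.7 in IL-18 null banded and 211.0 in IL-18 null sham, a difference of 2.26, against 293.0 in wild-type banded and 705.4 in wild-type sham, a difference of -1.27. The integrin chain gene Itgav, which pairs to bind periostin and fibronectin, read 1146.7 in IL-18 null banded, 623.6 in IL-18 null sham, 520.3 in wild-type banded and 951.5 in wild-type sham, with differences of 0.88 and -0.87. Fbln5, an elastic-fibre protein, differed by 0.88 and -0.98. For these 3 genes wild-type sham was higher than wild-type banded, unlike Itgb1 and the second Sparc probe set, for which it was the lowest array; neither pattern was tested.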
